A study of Rattus norvegicus with 2 samples.

Results

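The nucleosome remodelling and deacetylase complex (NuRD) and the histone demethylase Lsd1 were taken as 10 listed genes. These were Mbd3, Chd4, Mta1, Mta2, Mta3, Hdac1, Hdac2, Gatad2a, Gatad2b and Kdm1a. They were chosen by name and not by their values, though with earlier results of these data known. Of these, 8 were matched by symbol among the 18156 genes of the insertion table, and Chd4 and Mta3 were not analysed here. All 8 held at least 10 transposon insertions over both libraries, the minimum for a measured gene, as did 11976 genes in all. The screen used RAH-1, a rat haploid embryonic stem cell line with a single copy of each chromosome, in which green fluorescent protein (GFP) had been placed behind Rex1, a gene of naive pluripotency. Mutations came from PB-SA-RFP, a piggyBac transposon with a splice acceptor and a red fluorescent gene. The mutant cells were differentiated at random, and those that stayed GFP-positive were sorted and returned to feeder cells in 2i/LIF medium, which maintains the undifferentiated state. There was 1 library labelled before and 1 labelled after screening, both from this reporter line and both carrying the transposon, so no difference had a replicate check and none was tested.

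NuRD joins an ATP-driven nucleosome remodeller to histone deacetylases, and Mbd3 or its relative Mbd2 holds these activities together through the Mta scaffold and the Gatad2 proteins. Lsd1, the product of Kdm1a, removes methyl groups from histones and works with CoREST proteins in a complex that also contains Hdac1 and Hdac2. In mouse embryonic stem cells Mbd3-NuRD and Lsd1 are known for silencing pluripotency and enhancer activity when the cells leave the naive state, and loss of Mbd3 hinders that exit.

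A piggyBac transposon integrates at the tetranucleotide TTAA, and these windows are shown because every count below rests on such sites. The following windows were the 250 bases upstream of the annotated start in RefSeq, assembly GRCr8, written from 5′ to 3′ on the strand of the gene, with TTAA in capitals. They belong to the members with the lowest shares after against before screening, Mbd3 (chr7:9963390-9963639, plus strand) and Gatad2a (chr16:19463250-19463499, plus strand), to the member with most insertions, Mta1 (chr6:137999665-137999914, plus strand), and to the deacetylase Hdac1 (chr5:147165388-147165637, minus strand).
Mbd3: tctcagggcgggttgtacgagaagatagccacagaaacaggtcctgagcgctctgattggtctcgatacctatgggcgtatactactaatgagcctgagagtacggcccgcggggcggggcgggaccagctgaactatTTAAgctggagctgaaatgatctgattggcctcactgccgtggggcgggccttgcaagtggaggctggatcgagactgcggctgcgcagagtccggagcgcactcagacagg
Gatad2a: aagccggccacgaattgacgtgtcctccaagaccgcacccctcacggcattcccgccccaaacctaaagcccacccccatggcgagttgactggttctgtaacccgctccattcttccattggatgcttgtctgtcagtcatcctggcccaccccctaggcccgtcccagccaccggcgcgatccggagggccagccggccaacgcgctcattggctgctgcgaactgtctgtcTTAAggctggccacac
Mta1: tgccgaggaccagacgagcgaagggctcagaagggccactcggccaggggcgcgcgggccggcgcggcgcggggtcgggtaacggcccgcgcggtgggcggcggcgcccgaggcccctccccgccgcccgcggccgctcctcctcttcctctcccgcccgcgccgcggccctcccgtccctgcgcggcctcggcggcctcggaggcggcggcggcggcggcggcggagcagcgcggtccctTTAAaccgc
Hdac1: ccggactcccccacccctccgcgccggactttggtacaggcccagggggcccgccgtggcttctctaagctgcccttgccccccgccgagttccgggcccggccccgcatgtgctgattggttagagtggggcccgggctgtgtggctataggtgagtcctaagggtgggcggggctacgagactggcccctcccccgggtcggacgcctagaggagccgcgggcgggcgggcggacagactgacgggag
The windows of Mbd3, Gatad2a and Mta1 each held 1 TTAA, which lay 112, 16 and 9 bases upstream of the start. The window of Hdac1 held none. Among the 8 members 5 windows held the motif, which reads the same on both strands, and 50.1% of all 33469 windows of this length did. The table gives insertions per gene and no positions, so no insertion was placed in these windows.

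Insertions assigned to genes numbered 1528935 before and 1287231 after screening, from 2824155 and 2351082 reads, and reached 12716 and 12463 genes. Each count was divided by the library's total, and the fold is the share after over the share before screening with a 95% interval that covers counting error only. Counts were not scaled to gene length, so levels are not compared between genes. Forward and reverse insertions of a gene matched more closely than independent events would. The mean of the squared difference over the sum, which would be 1 for independent insertions, was 0.345 before and 0.369 after screening in genes with at least 20 oriented insertions. Over the members with as many it was 0.534 and 0.399. Of genes with exactly 2 oriented insertions, 83.6% before and 80.2% after screening had 1 in each direction. Whether single insertions were counted on both strands was not tested. The intervals treat insertions as independent. Each member described below as at least 2-fold higher or lower with an interval excluding 1 stayed so when all counts were halved. Halved counts were not used for the intervals of ratios between 2 genes, sums over members, classes of insertion, neighbouring genes or genes under 2-fold.

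Mbd3, the methyl-CpG-binding-domain subunit that defines this form of NuRD, had the lowest fold of the members. The gene (ENSRNOG00000028956) held 392 insertions before and 44 after screening. These made 25.6 of every 100000 gene insertions before (95% interval 23.2 to 28.3) and 3.42 after (2.48 to 4.59), and the intervals did not overlap. The share was 7.50-fold lower after screening (5.48 to 10.5), or -2.89 on the log2 scale with a pseudocount of 0.5 insertions. Of all measured genes, 15.9% lay below it. Disrupting insertions, which the authors counted as those expected to break the gene, went from 264 to 28 (8.09-fold lower, 5.47 to 12.4). Reads went from 543 to 57 (7.93-fold lower), with 1.39 reads per insertion before and 1.30 after. All 3 counts placed Mbd3 more than 7-fold lower, but they are not independent, because disrupting insertions and reads belong to the same insertions.

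Gatad2a and Gatad2b encode alternative zinc-finger subunits that link Mbd3 or Mbd2 to the remodeller, and their shares lay in opposite directions. Gatad2a (ENSRNOG00000022173) held 361 insertions before screening and 141 afterwards, so that its share was 2.16-fold lower (1.77 to 2.64). Gatad2b (ENSRNOG00000015553) held 29 and 50, and its share was 2.05-fold higher (1.27 to 3.36). The fold of Gatad2b was 4.41 times that of Gatad2a (2.61 to 7.53), an interval that excludes 1. By reads Gatad2a went from 538 to 205 (2.18-fold lower) and Gatad2b from 40 to 59 (1.77-fold higher), in the same directions. Gatad2a was the only member that overlapped another gene in GRCr8, Tssk6, which held 8 and 31 insertions and so did not share its direction.

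The scaffold subunits Mta1 and Mta2, which bind the deacetylases, also differed in fold, by an interval that treats insertions as independent. Mta1 (ENSRNOG00000004711) held 421 insertions before and 737 after screening, the most of any member in either library. Its share went from 27.5 to 57.3 per 100000 insertions, 2.08-fold higher (1.84 to 2.35), or 1.06 on the log2 scale. Reads gave a larger fold than insertions, 2.56 (620 and 1319), and reads per insertion went from 1.47 to 1.79. Disrupting insertions gave a smaller one, 1.91 (267 and 437, 1.63 to 2.23), which is under 2-fold. Mta2 (ENSRNOG00000019913) held 29 and 24 insertions, a fold of 0.983, whose interval (0.548 to 1.75) covers differences in either direction, so that none was detectable at this depth. The fold of Mta1 was 2.12 times that of Mta2 (1.17 to 3.85).

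Hdac1 and Hdac2, the closely related deacetylases that NuRD shares with CoREST and SIN3, both held a higher share after screening and did not differ from each other beyond counting error. Hdac1 (ENSRNOG00000009568) held 125 insertions before and 200 after screening, 1.90-fold higher (1.51 to 2.40). Hdac2 (ENSRNOG00000000604) held 58 and 100, 2.05-fold higher (1.47 to 2.88). The fold of Hdac2 was 1.08 times that of Hdac1 (0.715 to 1.63). GRCr8 annotates 18 pseudogenes named for Hdac1 and 1 each for Hdac2 and Mta2, and whether reads from such copies were assigned to these genes was not tested.

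Kdm1a had the highest fold of the members. The gene (ENSRNOG00000022372) held 18 insertions before and 45 after screening, or 1.18 and 3.50 per 100000, which gave a share 2.97-fold higher (1.68 to 5.45) and 1.55 on the log2 scale. Disrupting insertions went from 9 to 24 (3.11-fold higher, 1.39 to 7.59) and reads from 26 to 51 (2.36-fold higher). Of all measured genes 76.3% lay below it. Its interval was the widest among the members with a higher share, and it overlapped those of Mta1, Hdac2, Gatad2b and Hdac1, so the order among these 5 genes was within counting error.

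**Figure D1:**
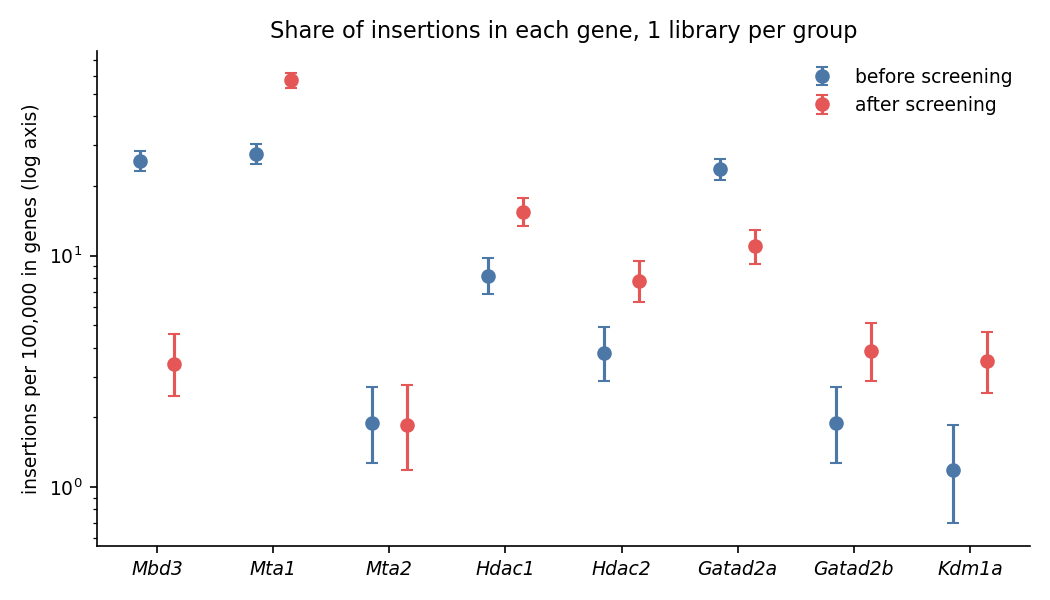
Insertions per 100000 gene insertions (log axis) in the 8 members, before (blue) and after (red) screening; points are the single library of each group and bars are 95% counting intervals. Mbd3 went from 25.6 to 3.42 and Mta1 from 27.5 to 57.3, while the bars of Mta2 overlap.

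**Figure D2:**
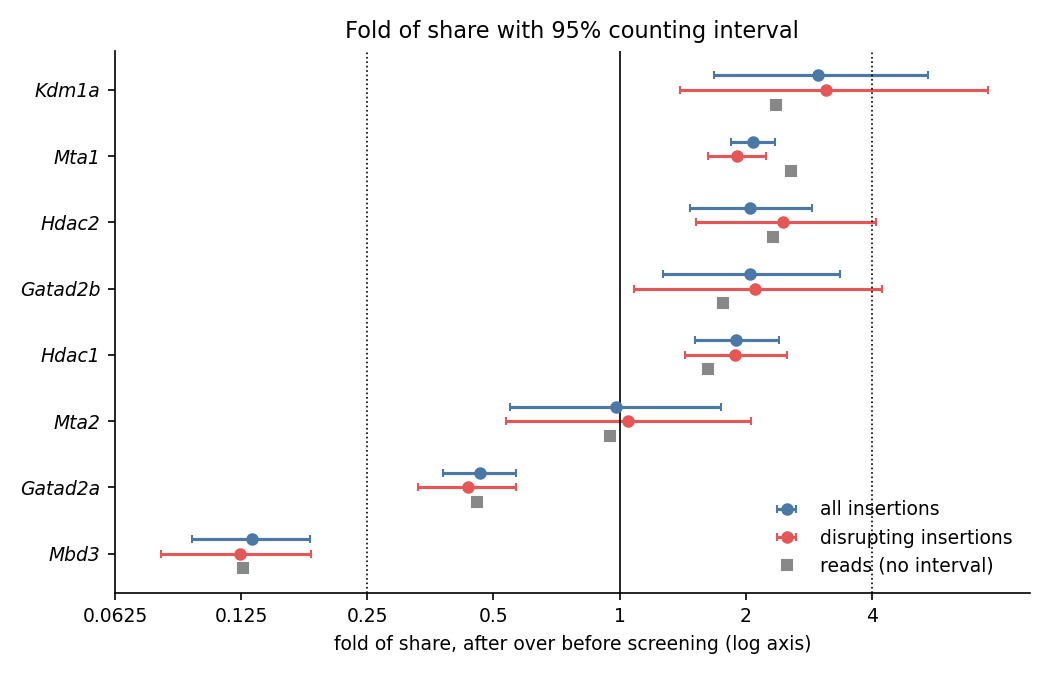
Fold of each member's share, after over before screening (log axis), by all insertions (blue), disrupting insertions (red) and reads (grey, no interval); bars are 95% counting intervals, the solid line is a fold of 1 and dotted lines mark 4-fold. Mbd3 lies past the lower dotted line by all 3 counts and no point lies past the upper one.

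Set against all genes, the members were not called more often at 4-fold. By the rule of size, at least 4-fold with an interval excluding 1, 0 of 8 members were higher, against 19.5% of all measured genes, and 1 of 8, Mbd3, was lower, against 21.7%. The counts were 0 and 1 also by disrupting insertions (18.7% and 21.2% of genes) and by reads (20.9% and 23.1%). At 2-fold or more, Mta1, Hdac2, Gatad2b and Kdm1a were higher, 4 of 8 against 31.5% of genes, and Mbd3 and Gatad2a were lower, 2 of 8 against 32.4%. Requiring the interval to exclude 1 left the same members, with 30.4% and 31.3% of genes. After scaling by the median ratio of well-covered genes, a shift of 0.11 on the log2 scale, 1 member, Kdm1a, stayed at least 2-fold higher with its interval, against 28.9% of genes under that scaling, and Mbd3 and Gatad2a stayed lower, against 32.8%. Mta1, Hdac2 and Gatad2b lay just above 2-fold and Hdac1, at 1.90, just below.

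Large folds were less common among genes with many insertions, and the members fell in different ranges of depth. Mbd3, with both libraries summed, belonged to the range from 300 to just under 1000 insertions, which held 2233 genes, of which 8.87% were called lower. In the same range 23.1% were at least 2-fold lower, as was Gatad2a, and 22.5% were at least 2-fold higher. Mta1 was among the 476 genes with 1000 or more insertions, of which 12.8% were at least 2-fold higher. For Gatad2b and Kdm1a, between 30 and under 100 insertions, that share was 35.9%. The median log2 ratio was 0.97 over the 8 members and -0.01 over all measured genes.

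**Figure D3:**
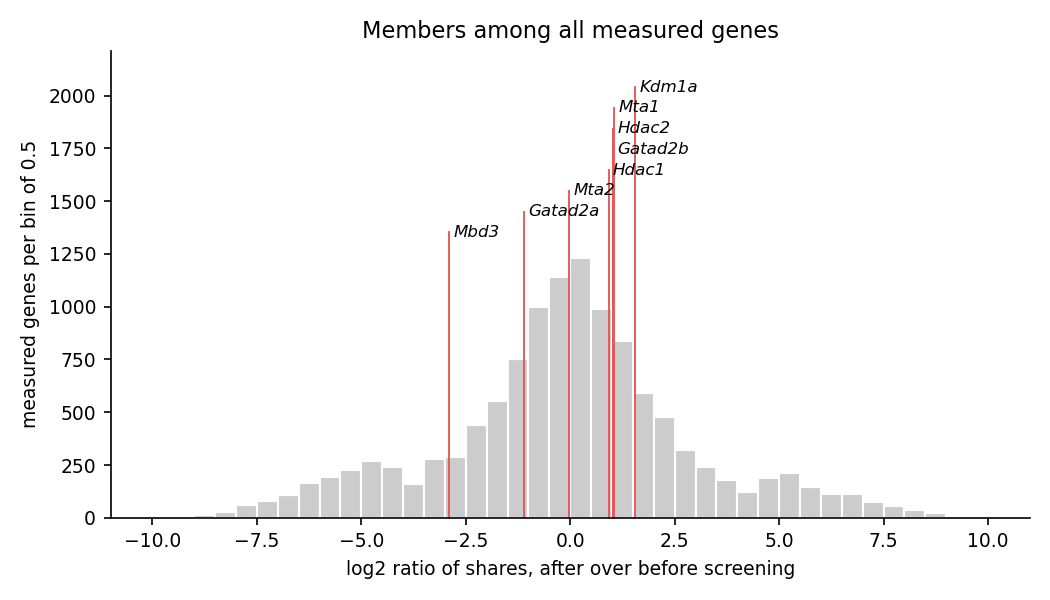
Distribution of the log2 ratio of shares, after over before screening, over the 11976 measured genes (grey bars, genes per bin of 0.5), with the 8 members as red lines whose heights carry no value. Mbd3 lies at -2.89, Gatad2a at -1.10, Mta2 at -0.02 and the other 5 members between 0.92 and 1.55.

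Together the 8 members held 1433 insertions in the first library and 1341 in the second, so that their summed share was 1.11-fold higher (1.03 to 1.20). The intervals of these sums treat insertions as independent. Neither halved counts nor median ratio scaling, a shift of 0.11 on the log2 scale, was applied to the sums. The makeup of the sum differed between the libraries. Mbd3 held 27.4% of the members' insertions before and 3.28% after, and Gatad2a 25.2% and 10.5%. Mta1 held 29.4% and 55.0%. Without Mbd3 the sum was 1041 and 1297, 1.48-fold higher (1.36 to 1.61), and without Mbd3 and Mta1 it was 620 and 560, 1.07-fold (0.955 to 1.20).

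Insertions were counted by orientation, forward or reverse to the gene, and in all 8 members subtracting the reverse insertions from the total gave the disrupting count, so the insertions without a counted orientation were read as lying in exons. Mbd3 was lower in each class. Its forward insertions went from 131 to 15 (7.35-fold lower, 4.30 to 13.5), its reverse ones from 128 to 16 (6.74-fold lower, 3.99 to 12.1) and its exon ones from 133 to 13 (8.61-fold lower, 4.87 to 16.6). The intervals of the 3 classes overlapped, and the exon share of the gene was 33.9% before and 29.5% after screening. A reverse insertion carries its splice acceptor against the direction of the gene and was not counted as disrupting.

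In Mta1 the oriented insertions and those in exons differed in fold. Forward insertions went from 138 to 324 (2.79-fold higher, 2.28 to 3.43) and reverse ones from 154 to 300 (2.31-fold higher, 1.90 to 2.83). Exon insertions went from 129 to 113, a fold of 1.04 (0.801 to 1.35), below both other intervals. The exon share of Mta1 was 30.6% before (26.3 to 35.3) and 15.3% after screening (12.8 to 18.1), while it went from 13.9% to 16.3% over the 17949 and 17962 genes in which the same subtraction held. Gatad2a had its lowest fold in exons, 45 and 10 insertions (3.79-fold lower, 1.88 to 8.43), against 2.03-fold lower in forward ones (1.52 to 2.74) and as much in reverse ones (152 and 63), with overlapping intervals.

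The other members gave fewer insertions per class. Hdac1 was higher in forward (36 and 77, 2.54-fold, 1.69 to 3.89) and reverse insertions (41 and 64, 1.85-fold, 1.23 to 2.81), and its exon fold of 1.46 had an interval that includes 1 (0.981 to 2.18). Hdac2 held 3 and 12 exon insertions (4.75-fold, 1.28 to 26.2). In Kdm1a forward insertions went from 7 to 20 (3.39-fold, 1.38 to 9.50) and reverse ones from 9 to 21 (2.77-fold, 1.22 to 6.87), and in Gatad2b the interval of each class included 1. Mta2 held 14 and 17 exon insertions, which made 48.3% and 70.8% of its total.

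**Figure D4:**
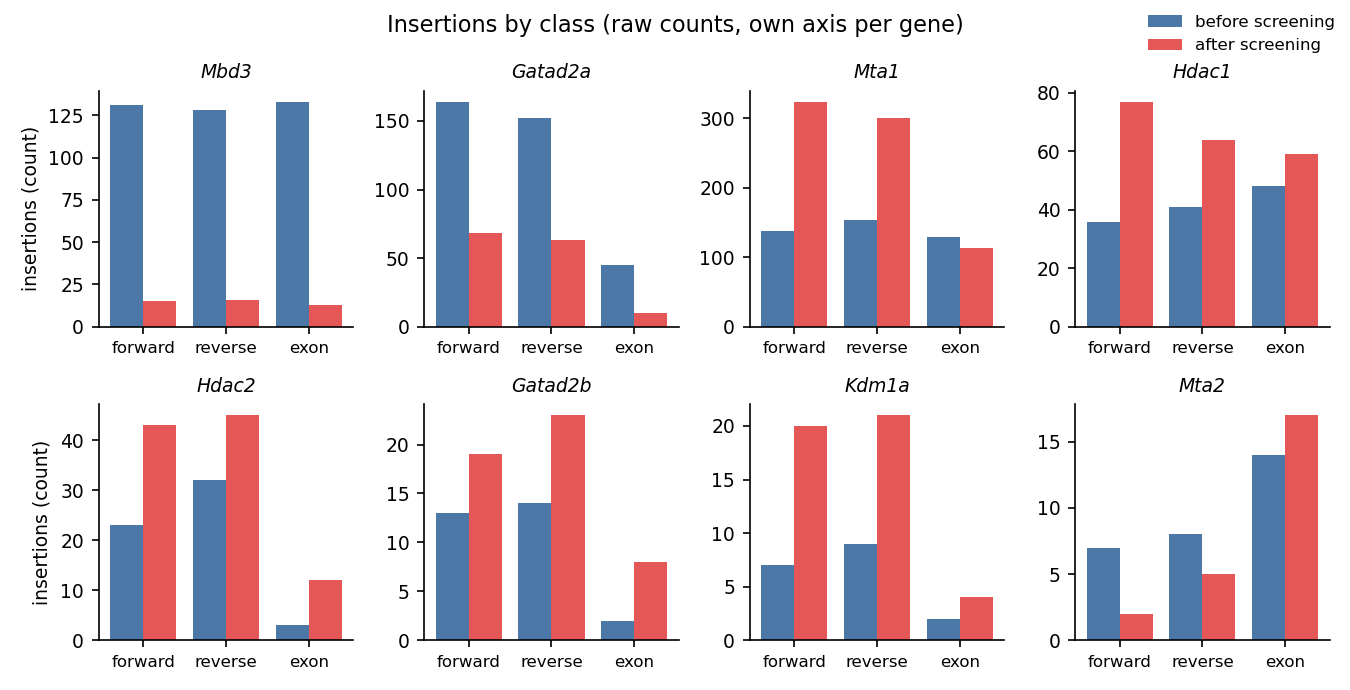
Raw insertion counts by class (forward, reverse and exon) in the 8 members before (blue) and after (red) screening, each gene on its own axis from 0. Mbd3 and Gatad2a are lower in all 3 classes, and in Mta1 the exon bars, 129 and 113, do not follow the forward and reverse ones.

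Other subunits of NuRD came from a list of 6 genes, of which 5 were measured and Chd3 was not analysed here. Against 19.5% and 21.7% of all genes, 2 were called higher and 1 lower, with a median log2 ratio of 0.45. With at least 50 insertions the median was 1.97, since Rbbp7, the gene called lower, was then left out. The histone-binding subunits Rbbp4 and Rbbp7 lay at opposite ends. Rbbp4 held 1 insertion before and 97 after screening (115-fold higher, 20.2 to 4597). Rbbp7 held 22 and 0, at least 6.17-fold lower against a floor of 3 insertions, with a 95% interval that began at 4.61-fold lower. The floor takes the other count as exact, and the interval, which does not, reaches smaller folds. They encode closely related proteins, both have annotated pseudogenes, and Rbbp4 overlaps Sync in GRCr8. Cdk2ap1, a small subunit with 8 annotated pseudogenes, held 17 and 165 insertions (11.5-fold higher, 6.98 to 20.3). Mbd2, the alternative to Mbd3, held 98 and 113 (1.37-fold, 1.04 to 1.81), and its fold was 10.3 times that of Mbd3 (6.67 to 15.9). Mbd2 was chosen for this comparison after its values were seen.

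Partners of Lsd1 came from a list of 8 genes, of which 5 were measured, and Rcor2, Phf21a and Gse1 were not analysed here. Against 19.5% and 21.7% of all measured genes, none was called higher and 2 were called lower, with a median log2 ratio of 0.43. Both were CoREST proteins, which hold Lsd1 on nucleosomes. Rcor1 held 396 insertions at first and 55 in the screened library (6.06-fold lower, 4.56 to 8.19). Rcor3 held 32 and 0 (at least 8.98-fold lower against the floor, with an interval that began at 6.89-fold lower). Kdm1a, the enzyme they bind, thus had a higher share where both had a lower one. Kdm1b, the related demethylase, held 142 and 220 insertions (1.84-fold higher, 1.48 to 2.29), and its fold was 0.620 times that of Kdm1a (0.324 to 1.14), within counting error. Hmg20b, a CoREST-associated protein, held 29 and 88 (3.60-fold higher, 2.35 to 5.69). Kdm1b and Hmg20b were also chosen after their values were seen.

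**Figure D5:**
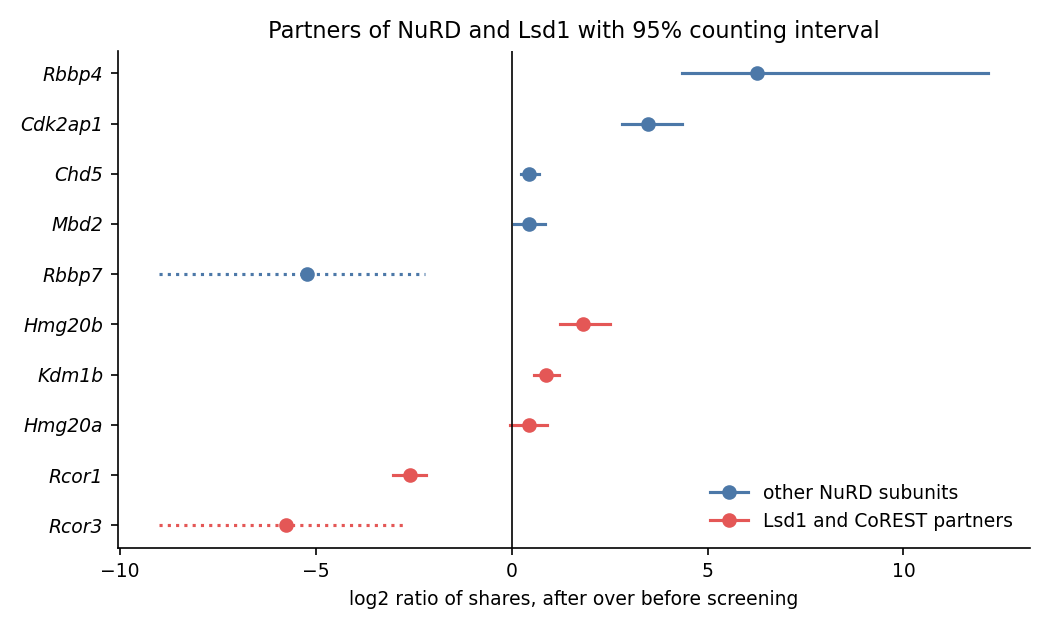
Log2 ratio of shares, after over before screening, for the other NuRD subunits (blue) and the partners of Lsd1 (red), with 95% counting intervals; dotted bars, cut off at the left, belong to genes with 0 insertions after screening, whose points depend on the pseudocount. Rbbp4 and Cdk2ap1 lie far right, at 6.27 and 3.49, and Rcor1 at -2.59.

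The candidate that the study followed up, the peptidase gene Thop1, lies on chromosome 7 like Mbd3, with 28 genes of the table between them in the order of GRCr8. Thop1 held 151 insertions before and 915 after screening (7.20-fold higher, 6.05 to 8.61), so its fold was 54.0 times that of Mbd3 (37.4 to 78.7). The paper took Thop1 from the most frequently inserted genes of this same screen, and Mbd3 had the lowest fold of the members. A large ratio between them was therefore built into the choice, which the interval does not cover. Neighbours were the nearest measured genes on each side of a member in this order, so genes not measured were skipped. They also had folds of their own. Uqcr11, beside Mbd3, held 66 and 4 insertions (13.9-fold lower, 5.18 to 52.5), and Plk5, on the other side, held 89 and 49 (1.53-fold lower, 1.07 to 2.21). Luzp1, beside Kdm1a, held 65 and 1 (54.7-fold lower, 9.48 to 2194), opposite to Kdm1a. Fam229a, beside Hdac1, held 5 and 156 (37.1-fold higher, 15.5 to 116). Some neighbours lay near a fold of 1, such as Zfp386 beside Mta1 (1.11, 0.513 to 2.40) and Ephb2 beside Kdm1a (1.17, 1.06 to 1.28). Others did not, such as Mau2 beside Gatad2a (5 and 55, 13.1-fold higher, 5.27 to 41.8), opposite to Gatad2a. Eif3i, also beside Hdac1, held 10 and 39 (4.63-fold higher, 2.27 to 10.4). In 11 of 16 pairs of member and neighbour the log2 ratios had the same sign. The 11 include the pairs of Mta2, whose own log2 ratio of -0.02 has no stable sign. The same share over neighbouring genes of the whole table was not computed, so the count has no background to stand against. Neighbours were taken by position, and those named were picked from these pairs after their values were seen. The part of neighbouring insertions in the members' counts was not tested.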

How the data were processed

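Splinkerette PCR, which amplifies genomic sequence beside a transposon end, was sequenced in 1 library before and 1 after screening, although the labels describe an RNA preparation. Per the methods, the authors trimmed adapters and ran HaSAPPy to align reads and assign insertions to genes. Which build was used is unclear, because mm10 is named in the methods while the identifiers are rat Ensembl ones. HISAT2 2.0.5 and featureCounts 1.5.0-p3 stand in the submitters' processing notes. The authors deposited raw counts, unscaled, of insertions, disrupting, forward and reverse insertions, and reads. The other 33 columns (sums, ranks, orientation strings, the authors' own folds and Fisher scores) were not used. Both libraries' column names carry a final number absent from the labels. Insertions assigned to no gene, 57.3% before and 57.9% after screening, stayed out of the totals except in 1 alternative.

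Shares of gene insertions, folds and exact Clopper-Pearson 95% intervals of the conditional binomial were computed with Python 3.11.15 and SciPy 1.17.1. Without molecular identifiers, PCR reads do not count independent molecules, and intervals and floors cover counting error only. The share compatible with 0 insertions reached 0.000196% before and 0.000233% after screening. Genes with at least 10 insertions were measured, and called where the fold was at least 4 and its interval excluded 1, with 0 taken as it stands. Log2 ratios used a pseudocount of 0.5. Scripts were tested on simulated independent counts, which lack the close matching of forward and reverse insertions found in these libraries. The members and lists were chosen with earlier results of these data known. Named were all members, up to 2 called genes per direction in each of 7 lists, and Thop1. Any others were chosen by position or after their values were seen. Neighbours, overlaps and pseudogenes came from RefSeq, assembly GRCr8. The alternatives were a pseudocount of 1, a minimum of 50 insertions or none beyond 1, a 2-fold rule, a total that includes insertions in no gene, halved counts, disrupting insertions, reads and median ratio scaling.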

Additional observations from a re-analysis of the deposited data

How the results depend on the processing

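No replicate could be left out. No paired analysis was possible because the comparison holds a single library on each side. A 2-fold rule with its interval called 4 members higher and 2 lower, where the 4-fold rule called 0 and 1. Of 48 log2 ratios of members under the alternatives, 47 stayed within their counting interval and the sign held in every member but Mta2, which went from -0.02 to 0.08 by disrupting insertions and 0.03 with halved counts. The exception to the interval was Mta1 by reads, 1.35 against 1.06, and the cause was not tested. Under median ratio scaling, an alternative chosen after seeing the data, as were the others run on the 2-fold counts, 1 member stayed at least 2-fold higher against 4. By disrupting insertions Mta1 and by reads Gatad2b fell short of 2-fold. With at least 50 insertions, 3 genes of the wider lists were called lower against 7, since fewer genes were tested. Depth limits Mta2, Kdm1a and Gatad2b most, with 18 to 29 insertions before screening.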

Other observations

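The calls in each list below stand against 19.5% of all measured genes called higher and 21.7% called lower. Factors that bind NuRD came from a list of 8 genes, of which 5 were measured. None was called higher and 2 were called lower, Sall1 and Pwwp2b. Sall1, a zinc-finger protein that recruits NuRD, held 24 insertions before screening and 0 afterwards. Its share was at least 6.74-fold lower against a floor of 3 insertions, with an interval that began at 5.07-fold lower. Pwwp2b held 112 and 3 (31.4-fold lower, 10.5 to 155). Its paralog Pwwp2a held 22 and 68 (3.67-fold higher, 2.24 to 6.24), a gene chosen after its values were seen. The median log2 ratio of this list was -0.91.

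In other complexes built on class I deacetylases, Hdac3, the enzyme of the NCoR complex, held 174 insertions at first and 33 in the screened library (4.44-fold lower, 3.05 to 6.65), and was the only gene called in its list of 7, all measured, with a median log2 ratio of 0.16. Its corepressor Ncor1 held 118 and 303 (3.05-fold higher, 2.46 to 3.81), chosen after its values were seen. In the SIN3 list of 11 genes, 4 were measured. Arid4a was called higher (0 and 123, at least 48.7-fold against the floor, with an interval that began at 39.0) and overlaps Tomm20l in GRCr8, and Ing2 was called lower (12 and 2, 5.05-fold lower, 1.12 to 46.5). The call of Ing2 was lost with a pseudocount of 1 (log2 ratio -1.87) and with halved counts. The median log2 ratio of the SIN3 list, -0.26, turned to 3.34 with halved counts, where fewer genes met the minimum. With at least 50 insertions only Arid4a was left, and its log2 ratio of 8.20 depends on the pseudocount. The median of this list therefore has no stable direction.

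Of the other methyl-CpG-binding proteins 3 of 5 were measured and none was called, with a median log2 ratio of -0.16. Of the other CHD remodellers 4 of 6 were measured. Chd1 was called higher (5 and 44, 10.5-fold, 4.16 to 33.8) and overlaps Chd1l2. The median log2 ratio of the CHD list was 0.05, and by reads it was -0.54. Chd2, chosen after its values were seen, held 237 and 183 insertions with 4.91 and 1.21 reads per insertion, against 1.85 and 1.83 over all genes.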
